A study of Mus musculus with 6 samples.

Results

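Ccl5, Nkg7, Gzma, Gzmb, Gzmk, Prf1, Xcl1, Klrd1, Ctsw and Ifng are genes of killer and effector lymphocytes, and they were followed here through the lymph node cells of immunized mice. The 10 genes were chosen by symbol from the 32285 genes of the count tables, and all 10 were found. Their unique molecular identifiers (UMIs, each standing for 1 captured RNA molecule) were read in cells that carried the hashtag of a single mouse, and a cell with at least 1 UMI of a gene is called positive for it.

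The study compared wild-type (WT) mice with mice labelled Pik3cg knockout (KO), 3 of each, in which the catalytic subunit p110γ of the lipid kinase PI3Kγ is the deleted product. Every mouse of both groups had been immunized 3 times with NP-Ova in alum, and the draining lymph node was taken on day 34. The cells were enriched for B cells by a negative selection with an added antibody to IgD, and 70% enriched cells were combined with 30% untouched cells. The cells of the 6 mice were marked with hashtag antibodies, mixed and run on 2 identical lanes of a 10x V(D)J kit, which reads RNA from its 5′ end. The labels name a knockout of the gene and no cell type in which it is deleted, and they give no age, sex or strain. The enrichment sets the numbers of T and NK cells that remain, so the shares of cell types are those of the mixture and not of the node.

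Cytotoxic lymphocytes, that is NK cells and CD8 T cells, store perforin and granzymes in granules. On contact with a target cell the granules are released, perforin opens the target's membrane and the granzymes, which are serine proteases, enter and start its death. The same cells secrete chemokines and interferon gamma, which recruit and activate other leukocytes, and naive CD8 T cells hold little of this equipment until they have been activated. NK cells carry perforin and granzyme RNA without prior activation.

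In total 19208 cells were kept, 2539 to 4049 for each mouse, with a median of 1981 to 2476 UMIs per cell and 7105625 to 13756152 UMIs per mouse. Both lanes shared 241 barcode sequences, and these were treated as separate cells of their own lane. Pik3cg itself was counted at 31.7, 31.2 and 40.0 CPM (its UMIs scaled to 1000000 UMIs of the cells summed) in WT animals and at 28.2, 28.9 and 28.5 CPM in KO animals over all cells. The KO mice were lower but kept most of the signal, and since the sources used here do not say which exons are deleted, reads from the 5′ end do not check the labels. WT and KO therefore stand for the label of each mouse.

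Cell types were set by marker UMIs. NK cells (160) had a UMI of Ncr1 or Klrb1c and none of Cd3d, Cd3e or Cd3g. CD8 T cells (1420), CD4 T cells (592) and Foxp3 T cells (143) had a Cd3 UMI, no UMI of the B cell genes Cd79a and Ms4a1, and at least 1 UMI of the gene that names them. B cells (13856) had a UMI of Cd79a or Ms4a1 and none of Cd3, Ncr1 or Klrb1c. A further 1678 T cells had no UMI of Cd4, Cd8a, Cd8b1 or Foxp3, and 798 cells had no UMI of the Cd3 genes, Cd79a, Ms4a1, Ncr1 or Klrb1c, called no T, NK or B marker UMI here. Left out were 519 cells with UMIs of both Cd3 and Cd79a or Ms4a1 and 42 T cells with Cd8 UMIs beside those of Cd4 or Foxp3. WT mice 1 to 3 gave 50, 23 and 24 NK cells and KO mice 1 to 3 gave 17, 31 and 15, and each mouse held 131 to 415 CD8 T cells, 39 to 147 CD4 T cells and 11 to 35 Foxp3 T cells.

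The genes were arranged by cell type in a steep order. Over the 6 mice, all of the 10 genes but Gzmk were higher in NK cells than in CD8 T cells in every mouse, with no overlap between the ranges. Below NK cells, the CD8 T cells carried Nkg7, Klrd1, Ctsw and Ccl5 and hardly any granzyme. In CD4 and Foxp3 T cells no member was positive in more than 12.6% of the cells, and in B cells none in more than 1.29%.

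Among the chemokines, Ccl5 encodes a chemokine that attracts T cells and monocytes, and lies on chromosome 11 (chr11:83525778-83530518, GENCODE vM21 on GRCm38, minus strand). Ccl5 was counted at 7737 ± 2810 CPM in NK cells (mean ± SD, n = 6 mice here and in the values by cell type that follow), 390 ± 60.4 in CD8 T cells, 58.8 ± 105 in Foxp3 T cells, 24.9 ± 23.5 in CD4 T cells and 12.5 ± 4.97 in B cells. The NK and CD8 values stood apart from each other and from the rest, while the ranges of Foxp3 T cells, CD4 T cells and B cells overlapped their neighbours. A Ccl5 UMI was found in 144 of 160 NK cells (90.0%), 185 of 1420 CD8 T cells (13.0%), 9 of 592 CD4 T cells (1.52%) and 179 of 13856 B cells (1.29%). The B cell share, at a median of 2046.5 UMIs per cell, is the reference for cells that should lack the gene, and the CD4 share, at 2449 UMIs, was close to it. Of the 179 positive B cells, 132 held a single Ccl5 UMI and 21 held 5 or more. Free RNA was not measured here, and the source of the Ccl5 UMIs in B cells was not tested.

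Xcl1, on chromosome 1 (chr1:164931644-164935527, minus strand), encodes lymphotactin, which attracts the cross-presenting dendritic cells that carry Xcr1. It was counted at 442 ± 193 CPM in NK cells and 25.8 ± 18.3 CPM in CD8 T cells. No Xcl1 UMI was found in 592 CD4 T cells or 143 Foxp3 T cells, which allows a share of up to 0.507% and 2.10%. These limits concern cells with a UMI, not cells that express the gene. Xcl1 was found in 62 NK cells (38.8%), 47 CD8 T cells (3.31%), 3.87% of the T cells with no Cd4, Cd8 or Foxp3 UMI, 2.13% of the 798 cells with no T, NK or B marker UMI and 0.0217% of B cells. Few cells set its sums, since 1 cell held 47 of the 76 Xcl1 UMIs in the CD8 T cells of WT mouse 2 (61.8%) and 1 cell held 54 of the 78 in the NK cells of KO mouse 2 (69.2%).

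Of the granule proteins, Nkg7 is a membrane protein of cytotoxic granules needed for their release, and its gene is on chromosome 7 (chr7:43437073-43438249, plus strand). It was found in 150 of 160 NK cells (93.8%) and 1030 of 1420 CD8 T cells (72.5%), against 4 of 592 CD4 T cells (0.676%) and 28 of 13856 B cells (0.202%). Its level was 2206 ± 899 CPM in NK cells, 599 ± 70.5 in CD8 T cells, 11.8 ± 14.2 in Foxp3 T cells, 6.56 ± 9.52 in CD4 T cells and 0.757 ± 0.745 in B cells. The CD8 values lay above all those of the Foxp3 T cells, CD4 T cells and B cells, although Nkg7 was not used in the gate.

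Prf1 (perforin, chr10:61297833-61304680, plus strand) followed another order. It was counted at 324 ± 186 CPM in NK cells, but CD8 T cells with 27.9 ± 4.96 CPM and CD4 T cells with 26.3 ± 20.5 CPM overlapped, and the CD8 value was the higher one in 4 of 6 mice. Among its positive CD8 T cells, 93.8% held a single Prf1 UMI. The share of B cells with a Prf1 UMI was 0.166%, below the 7.96% of CD8 and 4.90% of CD4 T cells.

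By the share of positive cells, the granzymes were almost confined to NK cells among the 5 types. Gzma (granzyme A, a tryptase, chr13:113093825-113100981, minus strand) was counted at 5681 ± 3770 CPM in NK cells and 7.76 ± 16.3 in CD8 T cells, and its 114 positive NK cells (71.2%) held a median of 20 UMIs each. Only 10 of 1420 CD8 T cells (0.704%) had a Gzma UMI, and 1 of them held 30 of the 38 UMIs of WT mouse 3. A Gzma UMI was also found in 12 B cells, 1 CD4 T cell and 1 Foxp3 T cell. Gzmb (granzyme B, which cleaves after aspartate and activates caspases, chr14:56258838-56262260, minus strand) was found in 46 NK cells (28.8%), 4 CD8 T cells, 3 CD4 T cells, 2 Foxp3 T cells and 1 B cell. Gzmk (granzyme K, chr13:113171608-113225908, minus strand) was found in 6 NK cells (3.75%), 3 CD8 T cells (0.211%) and 5 B cells (0.0361%), and in none among the CD4 and Foxp3 T cells. Its 12.7 ± 11.7 CPM in NK cells overlapped the range of the CD8 T cells.

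Ctsw (cathepsin W, a papain-type protease of NK and CD8 T cells, chr19:5465043-5468507, minus strand) reached furthest into the other T cells. It was counted at 508 ± 113 CPM in NK cells, 232 ± 32.3 in CD8 T cells, 54.6 ± 24.0 in Foxp3 T cells, 31.1 ± 11.6 in CD4 T cells and 0.432 ± 0.664 in B cells. The CD4 range lay wholly above that of B cells, and 44 of 592 CD4 T cells (7.43%) and 18 of 143 Foxp3 T cells (12.6%) were positive against 7 of 13856 B cells.

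The receptor of the group, Klrd1, encodes CD94, which pairs with NKG2 proteins to read the class Ib molecule Qa-1 (chr6:129591782-129598775, plus strand). It was counted at 644 ± 213 CPM in NK cells, 223 ± 28.0 in CD8 T cells, 16.1 ± 6.52 in CD4 T cells, 4.86 ± 11.9 in Foxp3 T cells and 1.23 ± 1.16 in B cells. Klrd1 was positive in 120 NK cells (75.0%) and 630 CD8 T cells (44.4%), although hardly any CD8 T cell had a granzyme UMI. The cytokine Ifng (interferon gamma, chr10:118441046-118445892, plus strand) was sparse, with 30 positive NK cells (18.8%), 4 CD8 T cells and 1 CD4 T cell. Its 67.5 ± 39.3 CPM in NK cells lay above every value of the other types.

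**Figure D1:**
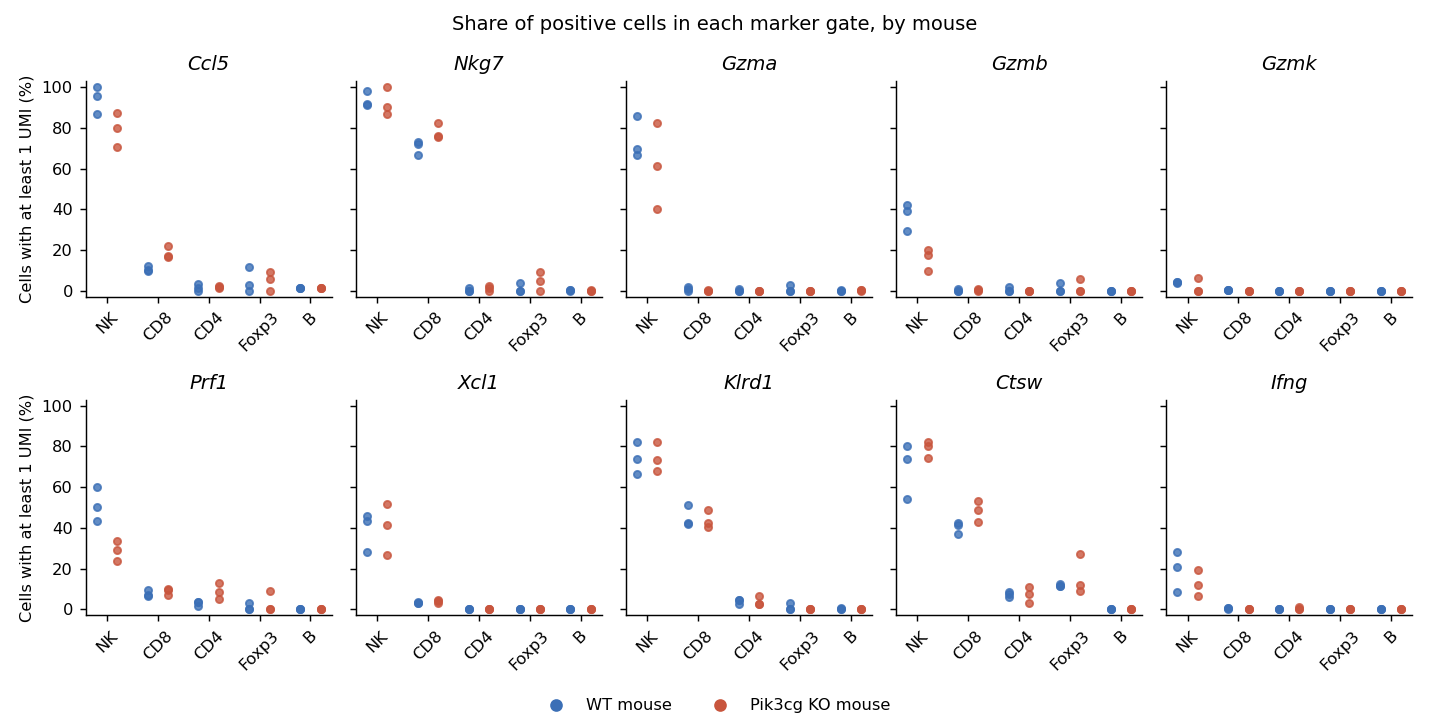
Share of cells with at least 1 UMI (percent, y axis) of each of the 10 genes in 5 marker-defined cell types (x axis); each point is 1 mouse, WT in blue and Pik3cg KO in red. Nkg7, Klrd1 and Ctsw are the members common to NK and CD8 T cells, while Gzma reaches 71.2% of all NK cells and 0.704% of all CD8 T cells.

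The cells differed in how many of the 10 genes they held together. An NK cell had UMIs of 5.38 of them on average and up to 9, and 152 of 160 NK cells (95%) had at least 3. A CD8 T cell had 1.85 on average, with 157 of 1420 (11.1%) holding none and 24 (1.69%) holding 5 or more. In 83.1% of CD4 T cells, 79.7% of Foxp3 T cells and 98.0% of B cells none of the 10 was seen.

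The stretches before the start sites of the granule genes Nkg7, Prf1, Gzma, Gzmk and Gzmb are shown. In NK cells Nkg7 and Prf1 were lower in every KO mouse than in every WT mouse. The values of the granzymes overlapped between the genotypes there. Gzma and Gzmk lie 70.6 kb apart on chromosome 13. Each line gives the 250 bases before the RefSeq start on GRCm38.p6, read 5′ to 3′ on the strand of the gene, with a RUNX motif (TGTGGT), a T-box motif (GGTGTG) or an AP-1 motif (TGANTCA) on either strand in capitals.
Nkg7 (chr7:43436888-43437137, plus strand): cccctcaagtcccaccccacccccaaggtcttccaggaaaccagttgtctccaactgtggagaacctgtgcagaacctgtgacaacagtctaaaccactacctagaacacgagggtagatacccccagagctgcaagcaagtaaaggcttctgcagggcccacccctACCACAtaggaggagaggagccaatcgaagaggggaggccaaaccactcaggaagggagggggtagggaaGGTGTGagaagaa
Prf1 (chr10:61297586-61297835, plus strand): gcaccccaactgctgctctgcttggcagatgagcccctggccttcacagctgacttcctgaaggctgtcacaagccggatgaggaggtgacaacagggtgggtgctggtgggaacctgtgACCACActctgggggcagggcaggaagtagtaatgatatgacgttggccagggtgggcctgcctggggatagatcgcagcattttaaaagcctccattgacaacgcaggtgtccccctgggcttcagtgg
Gzma (chr13:113100982-113101231, minus strand): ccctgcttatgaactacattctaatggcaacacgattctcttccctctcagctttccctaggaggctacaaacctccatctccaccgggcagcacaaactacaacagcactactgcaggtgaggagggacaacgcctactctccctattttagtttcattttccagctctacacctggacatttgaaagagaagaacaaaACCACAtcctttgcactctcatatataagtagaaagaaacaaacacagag
Gzmk (chr13:113180966-113181215, minus strand): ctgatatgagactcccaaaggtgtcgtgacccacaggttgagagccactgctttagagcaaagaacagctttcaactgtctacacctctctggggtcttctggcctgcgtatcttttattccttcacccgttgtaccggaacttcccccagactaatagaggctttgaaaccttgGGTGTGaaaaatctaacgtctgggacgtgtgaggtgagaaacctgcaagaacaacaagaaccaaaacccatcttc
Gzmb (chr14:56262335-56262584, minus strand): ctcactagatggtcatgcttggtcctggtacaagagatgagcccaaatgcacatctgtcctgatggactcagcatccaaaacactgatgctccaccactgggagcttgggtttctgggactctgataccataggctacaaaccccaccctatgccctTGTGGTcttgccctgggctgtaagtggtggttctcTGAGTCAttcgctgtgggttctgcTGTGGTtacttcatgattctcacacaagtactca

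RUNX and T-box proteins (Runx3, Tbx21, Eomes) are known regulators of the cytotoxic programme, and AP-1 is made of Fos and Jun proteins. RefSeq gave this stretch for 7 of the 10 members, and the RUNX letters were in 5 of them (Nkg7, Prf1, Gzma, Gzmb and Xcl1), while 14.0% of all 32851 promoters held them. The T-box letters were in 3 of 7 (Nkg7, Gzmk and Xcl1) against 16.3% of all promoters, and the AP-1 letters in the Gzmb stretch alone against 6.75%. The neighbours Gzma and Gzmk held different motifs, and that of Ifng held none of the 3. These are matches of letters and say nothing of binding in these cells.

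The first question put to the groups was whether the CD8 and CD4 T cells differed in the members, with the mouse as a block. The 4 members tested reached the minimum level through their CD8 sums (none did in CD4 T cells alone), so their direction was set by that filter and is given as a description. Nkg7 was higher in CD8 T cells by 6.40 on the log2 scale (SE 0.22), Ccl5 by 4.35 (SE 0.20), Klrd1 by 3.89 (SE 0.18) and Ctsw by 2.95 (SE 0.16), and in every one of the 6 mice. Over all 4403 genes tested, 662 differed, which is 15.0%. Of the 3 granule partners tested, Cst7, which encodes cystatin F and restrains granule proteases, was higher by 2.45. Like the 4 members it reached the minimum level through its CD8 sums, so its direction was set by that filter too. The other granule partners tested were negative, and 0 were called lower. Of the effector transcription factors, Runx3 was higher by 2.04 and Stat4 by 0.76 (both past an edgeR adjusted p of 0.05).

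NK cells of KO mice had less Nkg7, Ccl5 and Prf1 RNA than NK cells of WT mice. Nkg7 was counted at 3090, 2641 and 3242 CPM in WT animals and at 1724, 1224 and 1313 CPM in KO animals. Ccl5 was counted at 10161, 10250 and 10140 CPM in WT animals and at 6033, 6088 and 3749 CPM in KO animals. Prf1 was counted at 511, 453 and 493 CPM in WT animals and at 251, 95.8 and 138 CPM in KO animals. For all of these genes the WT mice lay close together, no KO mouse reached the lowest WT mouse, and KO mouse 1 was the highest or near the highest KO mouse.

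In edgeR's quasi-likelihood test over the 882 genes abundant enough in NK cells, Nkg7 fell by 1.08 on the log2 scale (SE 0.15, adjusted p = 0.0127), Ccl5 by 0.93 (SE 0.16, adjusted p = 0.0213) and Prf1 by 1.67 (SE 0.31, adjusted p = 0.0356). They were 3 of 5 genes that changed in NK cells, which is 0.567% of those tested. The others were Ccl3, an inflammatory chemokine that fell by 2.85 (SE 0.45, adjusted p = 0.0190), and Foxn3, which fell by 2.50 (adjusted p = 0.0356). Nkg7 and Ccl5 reached the minimum level of the test in every mouse. Prf1, Ccl3 and Foxn3 reached it through their WT sums, so their direction was set by that filter. Their calls are given as a description. The median log2 fold change of the 8 members tested was -0.81, against -0.02 over all genes tested. The 10 members together made up 2.71%, 2.19% and 2.33% of the UMIs of WT NK cells and 1.81%, 1.00% and 0.798% of those of KO NK cells.

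The NK calls rest on small numbers of cells and on single mice. Nkg7 had adjusted p = 0.169 without WT mouse 1 and 0.174 without WT mouse 3, Ccl5 had 0.182, 0.106 and 0.180 without WT mice 1, 2 and 3, and Prf1 had 0.237, 0.112 and 0.180 without those mice and 0.167 and 0.142 without KO mice 2 and 3 (edgeR, direction kept in each). B cell markers were high in 2 KO mice in the same gate, and lowest of all in KO mouse 1: the summed level of the 5 B cell markers was 475, 406 and 350 CPM in WT animals and 298, 1459 and 1123 CPM in KO animals, and 2, 4 and 1 WT cells but 1, 11 and 2 KO cells had a UMI of Cd79a or Ms4a1. Without those 21 cells, Nkg7 was lower by 0.86 (adjusted p = 0.00481) and Prf1 by 1.37 (adjusted p = 0.0280), whereas Ccl5, at 11633, 11598 and 11461 CPM against 7034, 10005 and 5106 CPM, had a log2 fold change of -0.61 with adjusted p = 0.113. For Ccl5 the genotypes still did not overlap in those cells. Prf1 again reached the minimum level through its WT sums. Without the cells scored as doublets by Scrublet, Ccl5 and Prf1 both had adjusted p = 0.0862.

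The other members tested in NK cells did not pass the threshold. Gzma was counted at 10942, 5969 and 7263 CPM in WT animals and at 7287, 1172 and 1451 CPM in KO animals, which edgeR put at -1.33 on the log2 scale (SE 0.51, adjusted p = 0.291). KO mouse 1 lay within the WT range, and 1 of its cells held 177 of its 465 Gzma UMIs (38.1%). Gzmb was counted at 468, 313 and 477 CPM in WT animals and at 1207, 59.0 and 138 CPM in KO animals. The high KO value came from 1 cell of KO mouse 1, which held 74 of the 77 Gzmb UMIs of that mouse (96.1%), and the log2 fold change was 0.01 with that mouse and -2.24 (adjusted p = 0.00256) without it. Gzmb reached the minimum level through its WT sums, so its direction without KO mouse 1 was set by that filter. Without KO mouse 1, Gzma and Klrd1 also passed, at -2.60 (adjusted p = 3.68e-06) and -0.99 (adjusted p = 0.0293).

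Klrd1 was counted at 796, 906 and 652 CPM in WT animals and at 689, 302 and 518 CPM in KO animals (log2 fold change -0.70, edgeR adjusted p = 0.285). Xcl1 was counted at 438, 734 and 429 CPM against 235, 575 and 242 CPM (log2 fold change -0.45, adjusted p = 0.623), and Ctsw at 570, 609 and 445 CPM against 642, 383 and 397 CPM (log2 fold change -0.21, adjusted p = 0.721). The WT and KO values of these genes overlapped. Ifng, at 117, 31.3 and 95.4 CPM against 31.3, 95.8 and 34.6 CPM, and Gzmk, at 14.6, 31.3 and 15.9 CPM against 0, 14.7 and 0 CPM, were too low for the test.

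**Figure D2:**
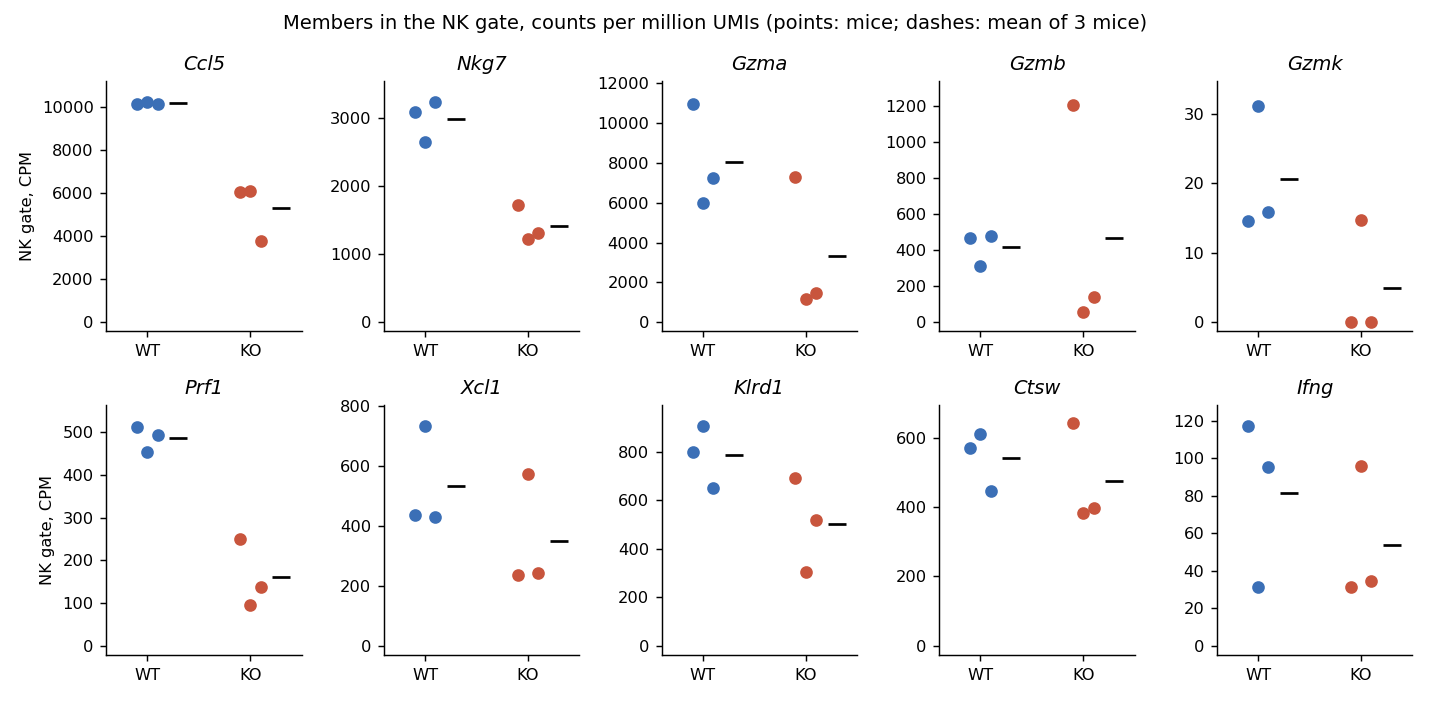
Level of each member in NK cells (CPM, y axis) in the 3 WT mice (blue) and the 3 Pik3cg KO mice (red); dashes are the mean of 3 mice. For Ccl5, Nkg7 and Prf1 every KO mouse lies below every WT mouse, and the single high Gzmb value of 1207 CPM is KO mouse 1.

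A lower sum can come from fewer positive cells or from less RNA in each, and both were measured. Because KO NK cells were more deeply counted (medians of 2904, 3004 and 2707 UMIs against 2157, 2365 and 2398), each cell was thinned to 1000 UMIs before shares were compared. After thinning, Prf1 was positive in 36.9%, 27.5% and 37.9% of WT NK cells and in 9.39%, 11.2% and 11.5% of KO NK cells. Gzmb was positive in 30.5%, 23.4% and 22.4% against 11.2%, 4.69% and 12.7%, and Klrd1 in 56.1%, 52.4% and 49.4% against 46.8%, 31.3% and 44.3%. The genotypes did not overlap for these 3 of the 10 members (each p = 0.1, two-sided exact permutation test, the smallest that 3 mice against 3 can give), and all were lower, whereas 6.20% of all genes compared were lower and 4.60% higher without overlap. For Klrd1 this was absent without thinning, where the KO share was 0.28 points above the WT share.

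For Ccl5, Nkg7 and Gzma the shares overlapped. Without the 21 cells with a B cell marker UMI they no longer did for Ccl5, at 97.0%, 92.6% and 90.6% against 71.4%, 85.0% and 81.5%, or for Nkg7, at 91.9%, 92.5% and 84.0% against 80.1%, 78.5% and 77.7%, so no difference between the members in share and level is read from them, and none was tested.

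The RNA held by a positive cell was the other measure. At 1000 UMIs per cell, a Nkg7-positive NK cell held 4.10, 3.42 and 4.58 UMIs in WT animals and 2.20, 2.34 and 2.81 UMIs in KO animals. A Gzma-positive NK cell held 16.1, 10.4 and 13.2 UMIs against 8.69, 4.38 and 5.76 UMIs, and a Ccl5-positive NK cell 12.5, 13.7 and 14.2 UMIs against 12.5, 10.4 and 7.44 UMIs (each p = 0.1, exact permutation test). For Ccl5 the nearest WT and KO mice, both numbered 1, had the same value to 3 digits. Ctsw-positive NK cells held 1.32, 1.38 and 1.30 UMIs in WT animals and 1.42, 1.48 and 1.35 UMIs in KO animals, with overlap (p = 0.2, exact permutation test). A Klrd1-positive cell held 1.59, 1.97 and 1.54 UMIs in WT animals and 1.45, 1.39 and 1.46 UMIs in KO animals (p = 0.1, exact permutation test). Of the 5 members with at least 5 positive NK cells in every mouse, 4 were thus lower without overlap, where 10.7% of the 244 such genes were lower and 23.4% higher.

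Besides Ccl3, a gene of the list of other effector cytokines and chemokines, no gene of the lists looked at in NK cells gave a call. The summed level of the 7 NK markers was 9306, 9031 and 8042 CPM in WT animals and 6707, 4526 and 4958 CPM in KO animals. The list holds Ncr1 and Klrb1c, of which a cell had to have 1 to enter the gate, at -0.60 (edgeR adjusted p = 0.336) and -0.79 (adjusted p = 0.225). The other 5 were also negative, among them Fcer1g at -0.80 (edgeR adjusted p = 0.0508) and Tyrobp at -0.61 (adjusted p = 0.183), the adaptors through which activating NK receptors signal, and none of the 7 passed the threshold. Of the 14 NK receptors and adaptors, 10 were tested, 0 passed and all 10 were negative, with a median of -0.59. Of 8 effector transcription factors, 5 were tested and 0 passed, with Tbx21 (T-bet) at -1.49 (adjusted p = 0.0943), Eomes at -0.90 (adjusted p = 0.481), Zeb2 at -1.37 (adjusted p = 0.0589), Id2 at -1.09 (adjusted p = 0.183) and Stat4 at 0.23 (adjusted p = 0.755). The stress genes induced by dissociation were also lower in KO NK cells, with summed levels of 1848, 2016 and 1764 CPM against 1175, 1541 and 570 CPM, and 0 of the 4 tested passed. What part these shifts and the depth of the cells have in the result for the members was not tested.

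Within the NK gate the granule genes were held by the same cells. The 114 Gzma-positive NK cells included all 46 cells with Gzmb and 64 of the 70 with Prf1. With each cell thinned to 1000 UMIs, Prf1 was positive in 34.0% of Gzma-positive and 3.93% of Gzma-negative NK cells, and Klrd1 in 55.8% and 27.7%. Xcl1 ran the other way, at 15.5% of Gzma-positive and 38.8% of Gzma-negative cells, in 5 of 6 mice, and Ctsw did not separate them, at 42.9% and 44.3%. The Gzma-negative cells carried Il7r, the interleukin 7 receptor chain, in 42.5% against 1.28%, and S100a4 in 29.9% against 3.26%, each higher in 6 of 6 mice. Zeb2 was positive in 28.4% of Gzma-positive and 2.62% of Gzma-negative cells, and Eomes in 23.1% and 4.79%. After the same thinning Gzma itself was positive in 83.4%, 68.6% and 64.1% of WT NK cells and in 71.8%, 48.1% and 37.0% of KO NK cells, with overlap (p = 0.3, exact permutation test).

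In CD8 T cells Ccl5, Nkg7 and Ctsw were found in a larger share of the KO cells. After thinning to 1000 UMIs, Ccl5 was positive in 6.70%, 6.04% and 8.50% of the CD8 T cells of WT mice and in 14.0%, 11.1% and 12.2% of those of KO mice. Every KO mouse lay above every WT mouse, by 5.35 points in the means (7.08% ± 1.27 against 12.4% ± 1.47, SD, n = 3, p = 0.1, exact permutation test). Without thinning the shares were 10.1%, 9.64% and 12.2% against 22.1%, 16.5% and 16.9%, while Ccl5 was positive in 1.29% of all B cells. The separation held under all 14 of the alternative settings tried. In 6 of these, 1 mouse was left out, which cannot make separated groups overlap. Only the other settings could have undone it.

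Nkg7 was positive in 42.3%, 35.2% and 41.9% of thinned WT cells and in 46.0%, 43.6% and 43.0% of KO cells. Ctsw was positive in 18.1%, 16.5% and 18.5% of WT cells and in 22.3%, 23.7% and 18.7% of KO cells. The gaps between the nearest WT and KO mice were small for both, and each separation was kept in 11 of 14 alternative settings (each p = 0.1, exact permutation test). Settings that leave out a mouse could not undo a separation, so every loss fell among the others. So 3 of the 6 members positive in at least 1% of the cells were higher without overlap, where 5.54% of all 7492 genes compared were. Gzmk and Ifng were lower without overlap, but each rests on 1 or 2 positive cells per WT mouse and none in KO animals. Both lay below the 1% of cells from which genes entered the comparison, in which 7.46% were lower without overlap.

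Klrd1 was positive in 23.3%, 18.3% and 19.1% of thinned WT CD8 T cells and in 17.3%, 20.8% and 17.9% of KO cells (p = 0.5, exact permutation test). Prf1 was positive in 2.20%, 2.32% and 3.25% against 3.20%, 3.27% and 2.08% (p = 0.9, exact permutation test), and Xcl1 in 1.08%, 1.38% and 0.816% against 1.34%, 1.16% and 0.800% (p = 1, exact permutation test). These 3 members overlapped between the genotypes. Their shares do not show that the genotypes are alike, since a difference the size of the spread would not be seen with 3 mice against 3.

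The level within positive CD8 T cells did not separate the genotypes. Among the 4 members with at least 5 positive cells in every mouse, 0 were without overlap, where 4.55% of the 2525 such genes were higher and 7.49% lower. A Ccl5-positive CD8 T cell held 5.16, 4.39 and 3.64 UMIs in WT animals and 2.49, 3.89 and 2.72 UMIs in KO animals at 1000 UMIs per cell (p = 0.2, exact permutation test), with overlap between the genotypes. A Nkg7-positive cell held 1.42, 1.33 and 1.44 UMIs against 1.43, 1.45 and 1.38 UMIs (p = 0.6, exact permutation test), and a Ctsw-positive cell 1.13, 1.15 and 1.17 UMIs against 1.16, 1.17 and 1.17 UMIs (p = 0.2, exact permutation test).

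**Figure D3:**
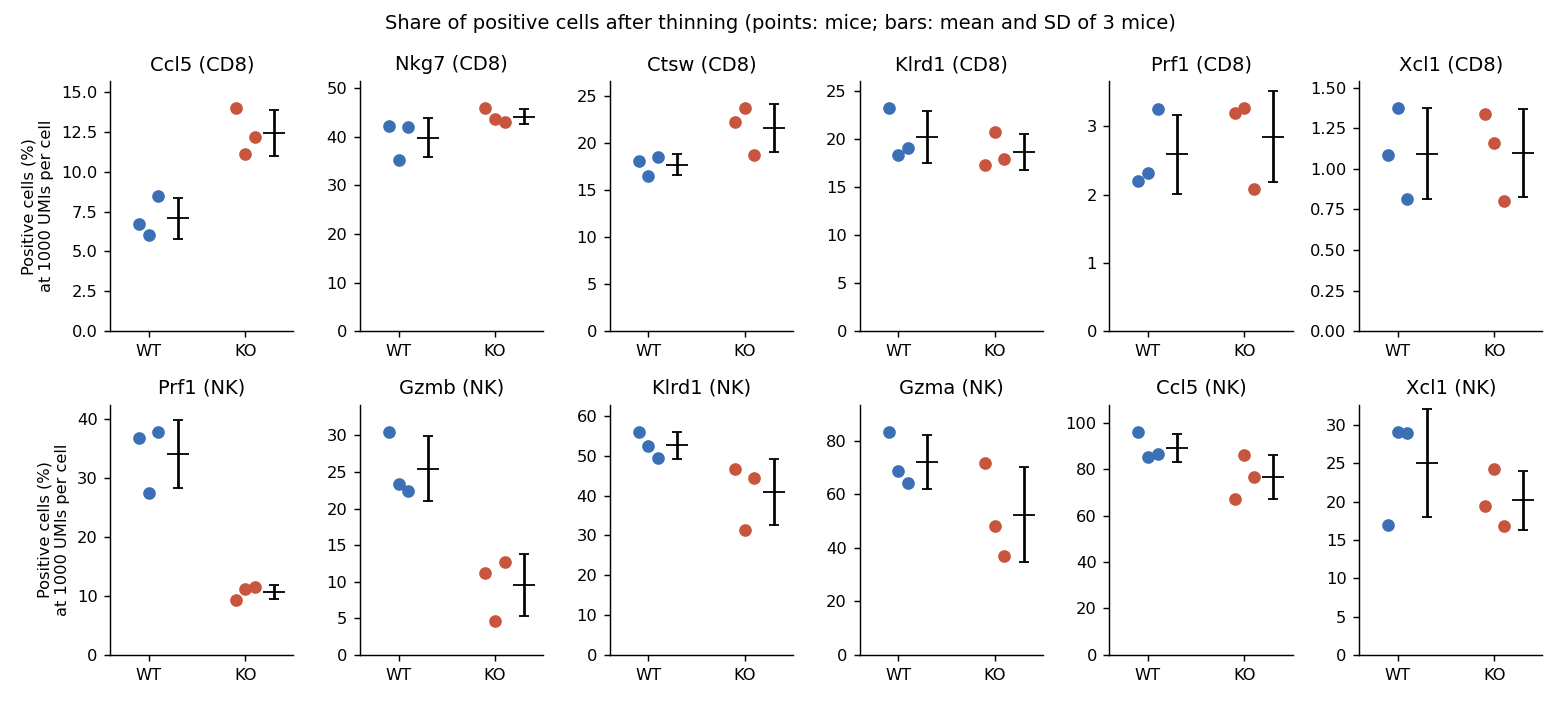
Share of positive cells (percent, y axis, each cell thinned to 1000 UMIs) for 6 members in CD8 T cells (top) and 6 in NK cells (bottom); points are mice, WT in blue and Pik3cg KO in red, and bars are mean and SD of 3 mice. Ccl5 in CD8 T cells lies at 6.04 to 8.50% in WT and 11.1 to 14.0% in KO mice, and Prf1 in NK cells at 27.5 to 37.9% and 9.39 to 11.5%.

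The summed UMIs of the CD8 T cells gave smaller differences, and none of the 6 members tested passed the threshold. Ccl5 was counted at 382, 305 and 365 CPM in WT animals and at 418, 487 and 380 CPM in KO animals (edgeR log2 fold change 0.34 with SE 0.10 and adjusted p = 0.139), and KO mouse 3 lay just below WT mouse 1. Ctsw was counted at 207, 195 and 228 CPM against 252, 284 and 225 CPM (0.32, adjusted p = 0.331), and Nkg7 at 590, 471 and 621 CPM against 670, 652 and 590 CPM (0.23, adjusted p = 0.489). Ccl5 passed only without KO mouse 3 (0.44, adjusted p = 0.0366).

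Xcl1 was counted at 30.4, 60.6 and 17.2 CPM in the CD8 T cells of WT mice and at 14.0, 21.3 and 11.3 CPM in those of KO mice, which edgeR put at -1.23 on the log2 scale (SE 0.38, adjusted p = 0.207). It was -0.48 without WT mouse 2, the mouse in which 1 cell held most Xcl1 UMIs, and passed without WT mouse 3 (adjusted p = 0.00941). Klrd1, at 268, 199 and 236 CPM against 194, 231 and 207 CPM, and Prf1, at 23.5, 24.7 and 34.4 CPM against 30.4, 32.0 and 22.5 CPM, overlapped, with log2 fold changes of -0.09 and 0.08. The share of all 6010 genes tested in CD8 T cells that changed was 0.532%, 32 genes. The members had a median log2 fold change of 0.15 against 0.00 over all genes.

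Around the members in CD8 T cells, 1 of 3 tested granule partners changed: Srgn, the proteoglycan that packs granzymes in granules, fell by 0.47 (edgeR adjusted p = 0.0283). None of 4 tested effector transcription factors passed, Eomes among them at 0.82 (adjusted p = 0.492). Of 8 tested homing and memory genes Il7r alone rose, by 0.46 (adjusted p = 0.00477), and of 8 tested naive T cell genes Dapl1 alone rose, by 0.45 (adjusted p = 0.0224). Stress genes fell, 5 of 8 tested, led by Hspa1a at -1.92 and Hspa1b at -1.73, with summed levels of 700, 875 and 968 CPM in WT animals and 472, 428 and 416 CPM in KO animals. Interferon-stimulated genes summed to 2678 CPM in KO mouse 1 and to 920 to 1216 CPM in the other mice, and 0 of 7 tested passed. The 7 NK markers summed to 15.2, 9.57 and 91.3 CPM in WT animals and to 9.34, 12.4 and 0 CPM in KO animals. The CD8 T cells were 9.99% ± 3.42 of the cells of a WT mouse and 4.91% ± 0.597 of those of a KO mouse (SD, n = 3). The part of these values in the Ccl5, Nkg7 and Ctsw shares was not tested.

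The Ccl5-positive CD8 T cells also held more RNA of genes of memory T cells and less of genes of naive T cells. With each cell thinned to 1000 UMIs, the 185 positive cells and 1222 negative cells, which had medians of 3782 and 2806 UMIs before thinning, differed by the widest gap among the genes looked at in Ly6c2, a surface marker of memory CD8 T cells, at 69.5% and 15.9%. Among the members, Nkg7 was positive in 49.7% and 39.3%, Ctsw in 28.3% and 17.5%, and Xcl1 in 6.70% and 0.268%, each higher in 6 of 6 mice. Klrd1, at 19.8% and 19.5%, and Prf1, at 3.43% and 2.57%, were higher in only 3 of 6 mice. Il2rb (14.2% and 4.33%), Eomes (6.05% and 1.45%) and Itgb1 (11.3% and 3.74%), genes of memory T cells, were higher in positive cells in 6 of 6 mice, and Lef1 (29.0% and 44.5%) and Ccr7 (11.4% and 17.7%), genes of naive T cells, were lower in 6 of 6.

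**Figure D4:**
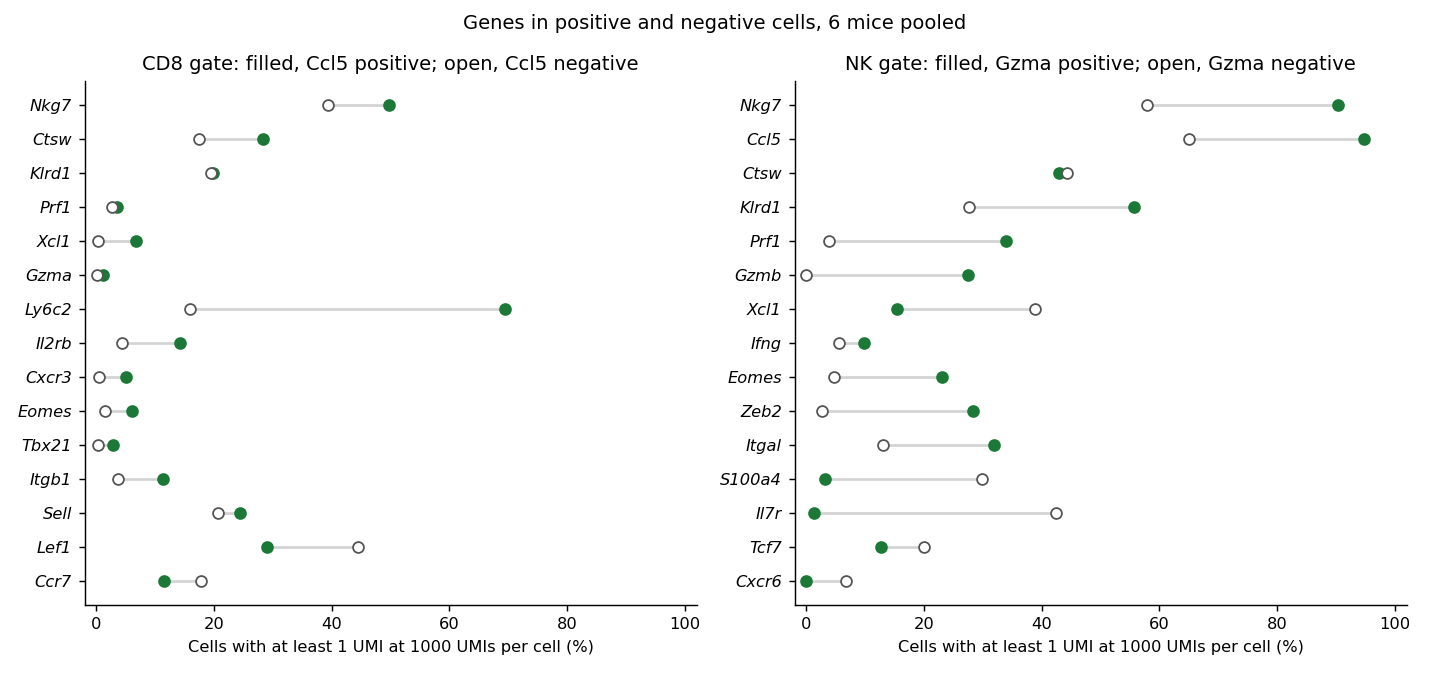
Share of cells with at least 1 UMI of each gene (percent, x axis, each cell thinned to 1000 UMIs) in positive (filled) and negative (open) cells of the 6 mice pooled; left, CD8 T cells split by Ccl5; right, NK cells split by Gzma. Ly6c2 shows the widest gap among the genes drawn for CD8 T cells (69.5% and 15.9%), and Il7r lies the other way in NK cells (1.28% and 42.5%).

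Whether the genotype effect differed between NK and CD8 T cells was tested in a fit over both types with the mouse as a block that was added after the values had been seen. Of 9 members tested, 2 differed in their genotype effect: Ccl5 by -1.23 on the log2 scale in NK relative to CD8 T cells (SE 0.14, edgeR adjusted p = 3.72e-09) and Nkg7 by -1.26 (SE 0.16, adjusted p = 4.21e-07). Over all genes tested 0.279% differed, 13 of 4667. Prf1 differed by -1.76 (SE 0.46, adjusted p = 0.0840), Klrd1 by -0.57 (adjusted p = 0.673) and Ctsw by -0.52 (adjusted p = 0.754), which did not pass. The other 4 members tested were positive and did not pass either. Gzma differed by 2.56 (edgeR adjusted p = 0.580), Ifng by 2.45 (adjusted p = 0.897), Gzmb by 0.90 (adjusted p = 0.928) and Xcl1 by 0.62 (adjusted p = 0.897). Gzma, Gzmb and Ifng had UMIs in only 10, 4 and 4 CD8 T cells. The CD8 effects of Ccl5 and Nkg7 did not pass on their own. The Nkg7 difference was -1.13 (adjusted p = 0.0652) in lane 1 alone.

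**Figure D5:**
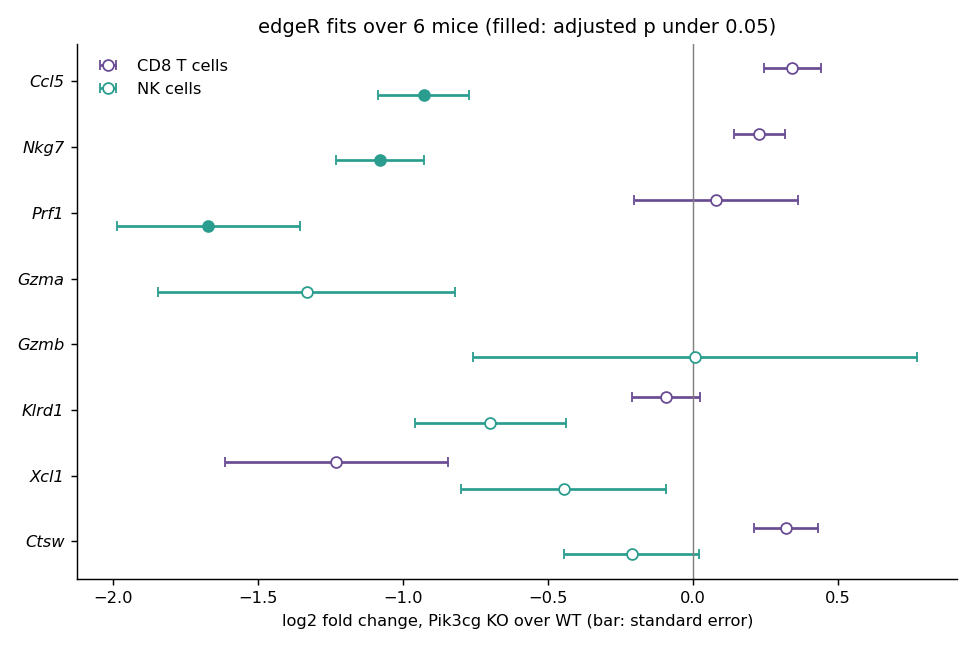
log2 fold change of Pik3cg KO over WT (x axis) in CD8 T cells (purple) and NK cells (teal) for the members tested; bars are standard errors from edgeR over 6 mice, and filled points have an adjusted p under 0.05. Ccl5 and Nkg7 lie at -0.93 and -1.08 in NK cells and at 0.34 and 0.23 in CD8 T cells.

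In CD4 T cells Prf1 was the member that separated the genotypes. After thinning it was positive in 0.708%, 1.68% and 1.44% of WT cells and in 2.32%, 2.77% and 5.72% of KO cells (p = 0.1, exact permutation test). Every KO mouse lay above every WT mouse, but the counts behind the shares were 2, 5 and 5 positive cells in WT animals and 2, 7 and 8 in KO animals. Of the 3 members positive in at least 1% of the cells (Prf1, Klrd1 and Ctsw), Prf1 was the 1 higher without overlap, where 6.05% of all genes compared were, and 12 of 14 alternative settings kept the separation. Those that leave out a mouse could not undo it. Ctsw, at 3.79%, 2.31% and 3.34% against 4.32%, 4.42% and 1.43%, and Klrd1, at 2.02%, 1.76% and 0.905% against 0.832%, 0.744% and 1.85%, overlapped (p = 0.8 and p = 0.4, exact permutation tests). No member was lower without overlap in CD4 T cells, where 7.23% of the genes were, and no member had 5 positive cells in every mouse, so a level within positive cells was not compared. In the same cells the stress genes summed to 1102, 1540 and 1320 CPM in WT animals and to 1070, 883 and 760 CPM in KO animals, lower without overlap. The 3 genes of antibody-secreting cells summed to 23.4, 21.3 and 22.1 CPM against 42.8, 37.6 and 29.2 CPM, higher without overlap. The part of either in the Prf1 shares was not tested.

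None of the 10 members was abundant enough to be tested for genotype in CD4 T cells, where 0.0293% of the genes tested changed (Hspa1b alone, a heat shock gene that fell by 1.99), or in Foxp3 T cells. In Foxp3 T cells 0 of 740 genes passed in edgeR (0%), 0 passed in DESeq2, and 27 had an unadjusted p under 0.05. Foxp3 T cells held Ctsw in 11.8% ± 0.589 of the cells in the WT and 16.0% ± 9.82 in KO animals (SD, n = 3), before thinning. Whether the genotype effect differed between CD8 and CD4 T cells was tested for 5 members, and 0 passed, against 0.0189% of all genes. Prf1 came nearest, at -1.55 in CD8 relative to CD4 T cells (SE 0.60, edgeR adjusted p = 0.710).

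Receptors for Xcl1 and Ifng were looked for in the same cells. Xcr1, the receptor for the Xcl1 protein, had no UMI in NK cells and was found in 4 of the 798 cells with no T, NK or B marker UMI (0.501%) and in 0.0577% of B cells. Ifngr1, the ligand-binding chain of the interferon gamma receptor, was positive in 56.9% of NK cells, 20.7% of CD8 T cells and 12.6% of B cells. Ifngr2, its signalling chain, was positive in 1.88% of NK cells, 3.52% of CD8 T cells and 6.12% of B cells.

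Across the 5 cell types in 6 mice, the genes with the pattern most like the summed members were Ifitm10, Cd7, Samd3, Klra7, Baiap3, Sytl3, Eomes and Cd160, with Pearson r from 0.93 to 0.90 over 30 sums (log2 of CPM + 1, 7097 genes compared). The members themselves ranged from 0.93 for Nkg7 to 0.67 for Gzmk on the same measure. The 30 sums share mice, libraries and the contrast of NK cells with the rest, so these values are given as a description.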

How the data were processed

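Draining lymph node cells of 3 WT and 3 Pik3cg KO mice were read as UMI counts that the authors deposited per lane. Per the file headers they come from Cell Ranger 7.0.1, and the submitters' processing notes give the build mm10. Each cell's mouse came from the deposited hashtag table, and the sources used here do not state how its single-hashtag calls were made. Of 23516 barcodes, 19270 had a single hashtag (3902 had several and 344 none), and 19208 of these had at least 500 UMIs, 200 genes and at most 10% mitochondrial UMIs. Barcodes with several hashtags were left out as doublets; removing a further 184 cells marked by Scrublet (scanpy 1.11.5; 0.958%) was an alternative. UMI counts were summed per mouse and cell type over both lanes, for mice with at least 10 cells of the type, and tested with edgeR 4.0.16 in R 4.3.3 (TMM, filterByExpr, quasi-likelihood test, two-sided, Benjamini-Hochberg over all genes tested, threshold 0.05). DESeq2 1.42.0 was an alternative, and the tests were tested on simulated data. Shares were compared per mouse after thinning each cell to 1000 UMIs (its expected share, with shallower cells left out: 13 CD8, 4 CD4 and 2 NK cells), by two-sided exact permutation tests over 20 assignments (scipy 1.17.1), and set against all genes positive in at least 1% of the cells of either genotype. Intervals and limits for counts of 0 cover counting error only, and all 6 mice shared the same 2 lanes. The comparisons of NK shares and of NK with CD8 T cells, and the shares of all genes set beside the level in positive cells, were added after the values were seen. The text names all 10 members, and from each gene list the genes past the threshold with the largest changes or, where none passed, the first in the order of the list, besides Fcer1g and the genes set beside Ccl5 or Gzma, which were chosen after their values were seen. Members and lists were chosen with earlier results of these data known. The B cell receptor libraries were not used here.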

Additional observations from a re-analysis of the deposited data

Results flagged for a closer look

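The genotype effect on Nkg7 was lower in NK cells than in CD8 T cells by -1.26 on the log2 scale (edgeR adjusted p = 4.21e-07), and that on Ccl5 by -1.23 (edgeR adjusted p = 3.72e-09). Both were picked out because the test of the difference between the cell types passed the threshold, in a fit added after the values of both types had been seen. Nkg7 was lower in every KO mouse than in every WT mouse in NK cells, and the shares of positive CD8 T cells were higher in every KO mouse for both genes, while the CD8 effects on the sums did not pass on their own. Without the NK cells that had a B cell marker UMI, the difference for Ccl5 was -0.87.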

How the results depend on the processing

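The number of genes that changed with genotype depended on the settings more than the direction of the members did. In CD8 T cells 32 genes changed in the reported test, 10 with DESeq2, 57 with no filter on low counts, 19 in lane 1 alone and 9 in lane 2 alone, and leaving out 1 mouse in turn gave 7 to 38, the lowest without WT mouse 2. In NK cells 5 genes changed, against 67 with no filter, 15 in lane 1, 73 in lane 2 and 2 without Scrublet calls, and leaving out 1 mouse gave 0 (without WT mouse 1 or WT mouse 3) to 59 (without KO mouse 1). In CD4 T cells 1 gene changed, against 17 with no filter, 2 in lane 2, 2 with at least 2 Cd3 UMIs and 2 where T cells could have 1 B cell marker UMI, with 1 to 6 on leaving out a mouse (6 without KO mouse 3). In Foxp3 T cells 0 became 18 with no filter, and lane 1 alone could not be fitted. Between CD8 and CD4 T cells 662 genes differed, 324 with DESeq2, 289 in lane 1 and 344 in lane 2. The genotype effect differed between CD8 and CD4 T cells for 1 gene, for 7 with no filter, 0 in lane 1, 3 in lane 2 and 1 to 2 on leaving out a mouse. It differed between NK and CD8 T cells for 13 genes, for 3 with DESeq2, 23 with no filter, 5 in lane 1, 30 in lane 2, 8 without NK cells that had a B cell marker UMI, and 8 to 34 on leaving out a mouse (34 without KO mouse 1).

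Of the members whose shares did not overlap, 5 in CD8 T cells became 2 in lane 1, 3 in lane 2, 3 at 1500 UMIs and 2 at a minimum of 2 UMIs. The 1 in CD4 T cells became 0 in lane 1, 0 at a minimum of 2 UMIs and 1 to 3 on leaving out a mouse, and the 3 in NK cells became 1 in lane 1, 5 at a minimum of 2 UMIs, 5 without cells with a B cell marker UMI and 3 to 5 on leaving out a mouse. The level within positive CD8 T cells was without overlap for 2 members with no thinning and for 0 to 2 on leaving out a mouse. Leaving out a mouse makes separation easier, since fewer mice must fall apart, and it cannot undo a separation already seen.

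Of the log2 fold changes of single members, 271 values under alternatives kept direction and side of the threshold, 10 gained the call, 15 lost it and 10 reversed. The differences of Gzma, Gzmb, Ifng and Xcl1 between NK and CD8 T cells were not among these values. The reversed values were 0.062 (lane 1) and 0.0011 (without WT mouse 1) for Klrd1 and -0.0027 (without WT mouse 2) and -0.020 (without KO mouse 2) for Prf1 in CD8 T cells. On leaving out a mouse Klrd1 ranged from -0.20 to 0.0011 and Prf1 from -0.020 to 0.26 there, and Gzmb in NK cells from -2.24 to 0.72. In NK cells they were 0.48 for Xcl1 (lane 2), 0.18 for Ctsw (without cells with a B cell marker UMI), and -1.83 (lane 1), -4.46 (lane 2), -0.14 (without WT mouse 2) and -2.24 (without KO mouse 1) for Gzmb. The Klrd1 share in NK cells reversed with no thinning, to 0.28 points. The causes of these reversals were not tested. For Gzmb, 1 cell held most UMIs of KO mouse 1, and no fit left out that cell alone. In lane 2 only 3 mice had 10 NK cells. No paired analysis was possible because the hashtags give each mouse its own number and the genotypes share none.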

Other observations

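Ccl5 was also found outside the T and NK gates. Among the 798 cells with no T, NK or B marker UMI, 64 had UMIs of both Ccr7 and Fscn1, genes of mature migratory dendritic cells, and 49 of these (76.6%) were positive for Ccl5, at 10422 CPM, while Nkg7, Gzmb and Xcl1 had no UMI in them. Of the other 734 cells, 16.1% were positive for Ccl5. Klrd1 was positive in 66.2% of 74 cells with a UMI of Siglech, a gene of plasmacytoid dendritic cells, at 406 CPM, and Ccl5 in 1.35% of them. Among B cells, 73.7% of the 179 cells with Ccl5 had a single UMI, but 21 had 5 or more and 1 had 43.

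The 1678 T cells with no UMI of Cd4, Cd8a, Cd8b1 or Foxp3 were mixed in the members. Of 259 with a UMI of a gamma delta receptor constant gene, 48.6% were positive for Ccl5, 61.0% for Nkg7, 33.6% for Ctsw and 29.3% for Klrd1. Of 50 with a UMI of Ncr1 or Klrb1c, 92.0% were positive for Ccl5, 94.0% for Nkg7 and 44.0% for Xcl1, but 10.0% for Gzma and 14.0% for Prf1. In the NK gate 71.2% of the cells were positive for Gzma and 43.8% for Prf1, and the difference between these cells was not tested. In the 1369 with neither, 8.25% were positive for Ccl5 and 10.6% for Nkg7.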
